A study of Ictidomys tridecemlineatus with 15 samples.

Results

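The genes examined were the enzymes and binding proteins of RNA editing and of m6A methylation, followed through hibernation in the liver of the 13-lined ground squirrel. The 10 genes were Adar, Adarb1, Mettl3, Mettl14, Wtap, Zc3h13, Fto, Alkbh5, Ythdc1 and Ythdf2, and each was looked up by its symbol among the names of the 6324 units of the deposited count table. A unit is a transcribed region named for a gene or, where overlapping genes had been joined, for several. Of the 10 genes, 7 had a unit, of which 6 were single-gene units and 1 was the merged unit Zc3h13:Cpb2. Adarb1, Mettl3 and Wtap matched no unit name and were not analysed here.

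Adenosine deaminases acting on RNA, such as the product of Adar, turn adenosine into inosine within base-paired RNA, which changes how the RNA is read and keeps the cell's own duplexes from being sensed as foreign. Methylation of adenosine at its N6 position, m6A, is laid down on nascent transcripts by a writer complex, can be taken off by the erasers Fto and Alkbh5, and is bound by reader proteins of the YTH family that steer splicing, export and decay. In the liver both systems act on RNAs of metabolism and of innate immunity.

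Transcription in progress was measured by global run-on sequencing (GRO-seq), in which polymerases already engaged on DNA in isolated nuclei extend their transcripts with a labelled nucleotide. Nuclei came from frozen livers of female squirrels of a breeding colony, and the run-on lasted 7 min at 30 °C for every state, whatever the temperature of the animal. The 5 states were SA (homeothermic animals before the hibernation season), IBA (animals rewarmed between bouts of torpor), Ent (animals entering torpor), ET (early torpor) and LT (late torpor), with 3 animals each except LT, for which 2 were used. A GRO-seq level therefore reports engaged polymerase in nuclei of a whole tissue at a common temperature, and the amounts of mRNA and protein, and editing and methylation themselves, were not analysed here. Libraries held 3713883 to 8884763 counted reads. Levels are given as CPM, counts scaled by the library size after adjustment by TMM factors, and per kb of unit length wherever genes are compared with each other. Scaling by library size hides changes of total transcription between states, as the paper points out. A rise in CPM is thus a rise relative to other units, and total transcription was not analysed here. The paper also proposes that in torpor polymerase fails to terminate on some genes and runs on slowly past their ends. Its units were lengthened downstream where the GRO-seq signal, joined over all states, ran further than the gene. Whether such polymerase added to the changes described below was not tested.

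The animals had been collected in 3 seasons. All 3 ET animals came from a season that held no other state, so that season and state cannot be told apart for ET. Both LT animals shared their season with SA replicate 1 and with Ent replicates 1 and 2, and the 3 IBA animals shared theirs with SA replicates 2 and 3 and with Ent replicate 3.

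The livers carried hepatocyte transcription in all states, at a level that moved with torpor. Of 11 hepatocyte markers, 7 had single-gene units (Apob, Ttr, Tf, Fgb, Cps1, Hnf4a and Pck1), and the mean of their summed level was 14965 ± 5233 CPM for SA (SD, n = 3), 12354.5 ± 1884 for IBA (n = 3), 9534 ± 728 for Ent (n = 3), 5254 ± 1314 for ET (n = 3) and 6013 ± 1624 for LT (n = 2). The SA animals spread from 10543.6 to 20743.2 CPM, across those of IBA, and every torpid animal was below every other animal. Of these 7, 5 were lower in the cold states ET and LT than in the warm states SA and IBA at an adjusted p of 0.001 or less by the quasi-likelihood test of edgeR (Benjamini-Hochberg adjustment), where 17.6% of all units were. Cps1 had the highest mean of them in SA, at 7452 ± 5639 CPM against 3228 ± 410.5 for Apob (SD, n = 3), a lead within its spread. Apob had the highest mean in the other states, at 2760 CPM in ET and 3781 CPM in LT. Markers of other cell types were few. Among endothelial genes, Pecam1 had 71.7 ± 7.68 CPM in IBA (n = 3) and 37.2 ± 4.49 in LT (n = 2), Kdr 100.9 ± 2.24 and 45.3 ± 7.82, and Stab1, in the other direction, 39.5 ± 7.62 and 58.7 ± 2.98. The cholangiocyte gene Sox9 had 23.9 ± 10.5 CPM in IBA and 8.60 ± 2.16 in LT, and the stellate cell gene Rgs5 56.9 ± 10.1 and 39.3 ± 2.30. Of these 5 genes, Sox9 (log2 fold change -1.33, adjusted p = 0.000459) and Kdr (-0.86, 0.000943) were also lower in the cold by the edgeR test at 0.001. For both genes the warm and cold animals overlapped, and limma-voom gave 0 calls. The listed macrophage markers were represented by Cd68 in a merged unit only, and no unit was named for any of the 7 leukocyte and 4 erythroid markers listed. In whole tissue, fewer cells of a type and less transcription per cell cannot be told apart, and the part of cell composition in the results on the genes of editing and m6A was not tested.

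The readers Ythdc1 and Ythdf2 and the eraser Alkbh5 rose in torpor as a share of the library. The editing enzyme Adar, the writer subunit Mettl14, the merged unit Zc3h13:Cpb2 and the eraser Fto gave no call at 0.001. This contrast between genes was not itself tested. At an adjusted p of 0.001 over all 6324 units, 3 of the 7 units differed among the 5 states by the quasi-likelihood test of edgeR (Benjamini-Hochberg adjustment), namely Ythdc1, Ythdf2 and Alkbh5, where 25.5% of all units did. With ET and LT together set against SA and IBA together, the same 3 units were higher in the cold and 0 were lower, beside 18.6% of all units higher and 17.6% lower. For the count of 0, edgeR at an unadjusted p of 0.05 gave 1 lower unit (Fto), and DESeq2 and limma-voom called 0. The median cold minus warm log2 fold change was 0.38 over the 7 units and -0.04 over all units. Genes of the list are not replicates of a state, and no test of the list as a whole was made.

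**Figure D1:**
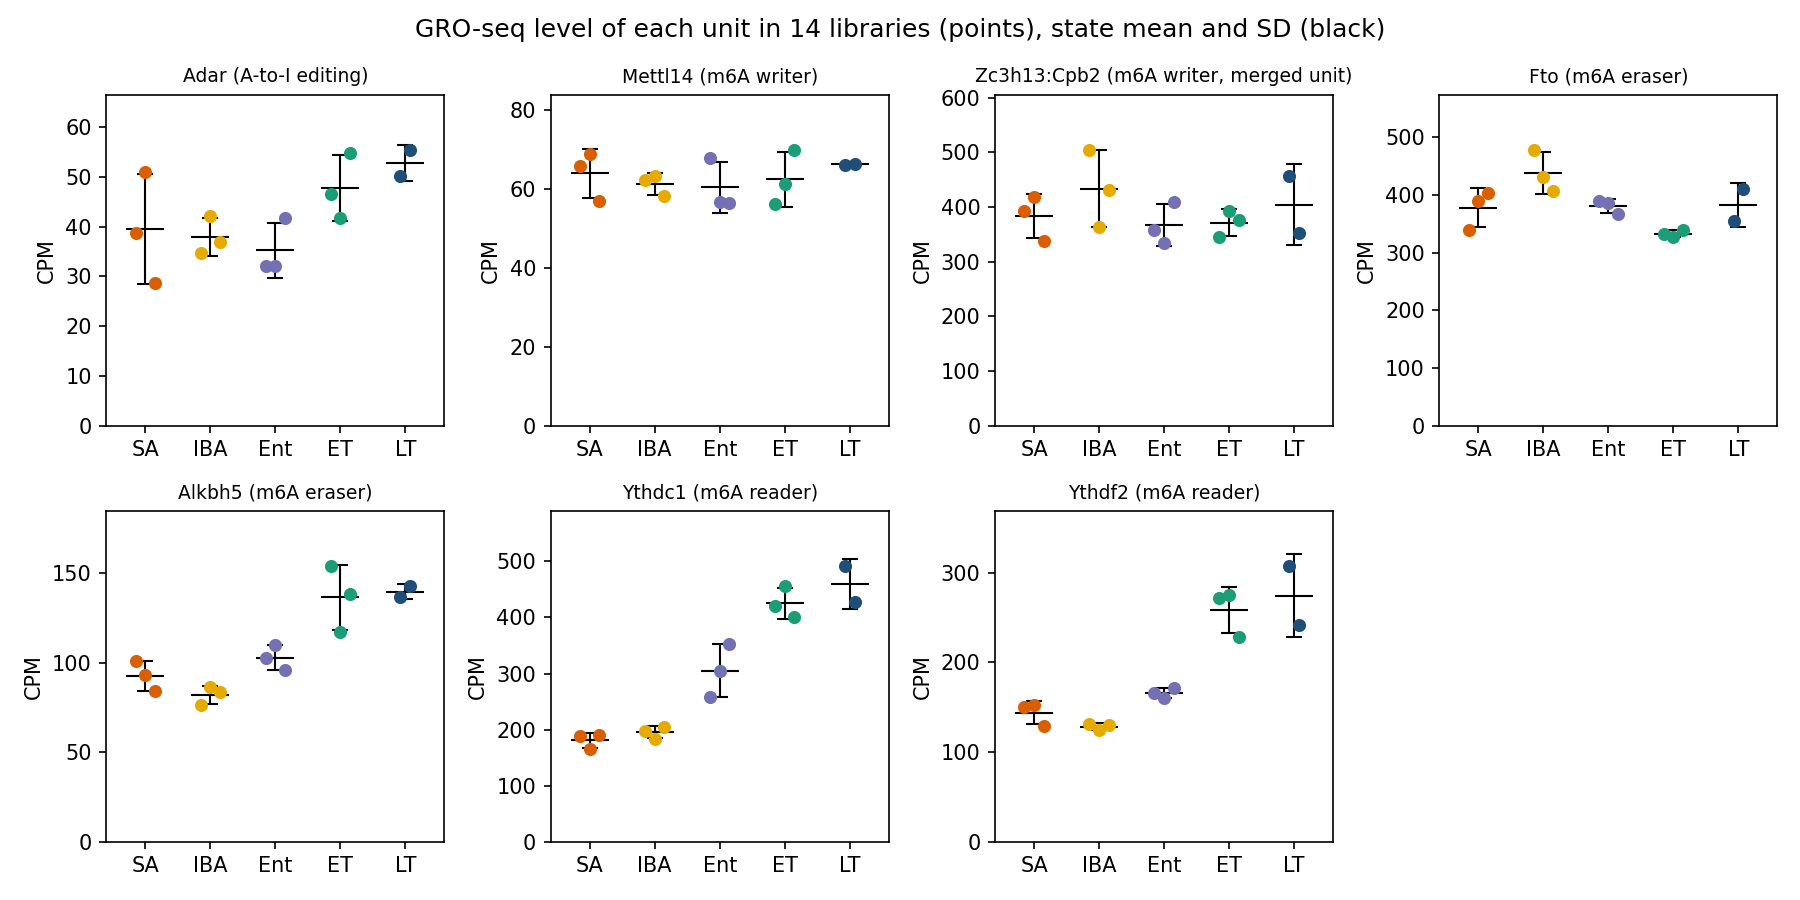
Level of each unit in CPM (y axis, starting at 0) in the 14 libraries by state (x axis), with points for animals and black bars for the mean and SD. Ythdc1 ran from 165 to 205 CPM in SA and IBA and from 401 to 491 CPM in ET and LT, whereas Mettl14 lay between 56.1 and 69.7 CPM in all libraries.

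Per kb of unit, the genes lay further apart in LT than in SA. In SA the mean level was 3.38 ± 0.261 CPM per kb for Ythdc1, 3.19 ± 0.280 for Ythdf2, 3.09 ± 0.326 for Zc3h13:Cpb2 and 3.06 ± 0.280 for Alkbh5 (SD, n = 3), which did not differ beyond their spread. Mettl14 followed at 2.07 ± 0.200 CPM per kb and Adar at 1.59 ± 0.446, whose ranges of animals overlapped, and Fto was lowest at 1.03 ± 0.0911. In LT the levels were 8.58 ± 0.831 CPM per kb for Ythdc1, 6.07 ± 1.03 for Ythdf2, 4.61 ± 0.135 for Alkbh5 and 3.26 ± 0.596 for Zc3h13:Cpb2 (SD, n = 2). The others had 2.14 ± 0.00511 CPM per kb for Mettl14, 2.13 ± 0.148 for Adar and 1.04 ± 0.104 for Fto. The median single-gene unit had 2.16 CPM per kb over all libraries, and by this measure Ythdc1 stood above 88.2% of single-gene units and Fto above 17.1%. The Fto unit was also long, with 367187 nt against a median of 36217 nt. All 7 units had at least 122 counts in every library, and none overlapped another unit of the table.

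Adar, the editing enzyme of this list with a unit, lay on Itri11 from 25152786 to 25177612 on the minus strand of the HiC_Itri_2 assembly. Its level was 38.8, 50.9 and 28.8 CPM in SA replicates 1 to 3, 34.7, 42.2 and 36.9 in IBA and 32.1, 32.0 and 41.7 in Ent. In ET it was 46.5, 41.8 and 54.9 CPM, and in LT replicates 1 and 3 it was 50.2 and 55.4. The torpid animals were on the high side, but SA replicate 2 lay among them and IBA replicate 2 just above the lowest of them, so that the warm and cold groups overlapped. The cold minus warm log2 fold change was 0.38 (standard error, SE, 0.15), and its adjusted p of 0.0436 by the quasi-likelihood test of edgeR (Benjamini-Hochberg adjustment) missed the threshold of 0.001. At a threshold of 0.05 Adar would have joined the 3 called units, making 4 of 7 where 30.8% of all units were called higher. That call ended when SA replicate 1 or 3, IBA replicate 1 or 3, Ent replicate 1, ET replicate 1 or 3, or LT replicate 1 or 3 was left out, and over all alternatives, with edgeR and the other tools, the adjusted p ran from 0.00803 to 0.122, highest without LT replicate 3. On the same strand, 11.3 kb upstream, lay the unit LOC110598741, which was higher in the cold with a log2 fold change of 1.19 (SE 0.16; adjusted p = 2.88e-05, edgeR), and whether transcription from it reached the Adar unit was not tested.

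Of the writer complex, the catalytic subunit Mettl3 and the targeting subunit Wtap were among the genes without a unit, and Mettl14, the partner that holds RNA for Mettl3, and Zc3h13, which keeps the complex in the nucleus, were measured. Mettl14 (Itri15, 67693325 to 67724174, minus strand) had 65.8, 68.8 and 56.9 CPM in SA, 62.2, 63.1 and 58.1 in IBA, and 67.9, 56.7 and 56.3 in Ent. It had 56.1, 61.1 and 69.7 CPM in ET and 66.1 and 66.3 in LT. Each state lay inside or across the range of the others apart from LT, whose values were above those of IBA by a small margin. The cold minus warm log2 fold change was 0.04, with a 95% interval from -0.17 to 0.26, and the adjusted p among the 5 states was 0.906 by the quasi-likelihood test of edgeR (Benjamini-Hochberg adjustment). A change of the size seen for Ythdc1, Ythdf2 or Alkbh5 lay outside that interval.

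The unit Zc3h13:Cpb2 (Itri4, 156063368 to 156187298, minus strand) joins Zc3h13 with Cpb2, the gene of a carboxypeptidase of plasma made by hepatocytes, and its counts cannot be divided between them. It had 392, 418 and 338 CPM in SA, 504, 363 and 432 in IBA, and 359, 333 and 408 in Ent. In ET it had 344, 392 and 377 CPM and in LT 456 and 352. The animals of every state overlapped those of every other state, with the highest value in IBA replicate 1. The cold minus warm log2 fold change was -0.07 (95% interval -0.32 to 0.18), with an adjusted p of 0.6 by the quasi-likelihood test of edgeR (Benjamini-Hochberg adjustment), and it was 0.05 with total counts as the library size. These values describe Zc3h13 no further than the share of the unit's reads that came from it, which was not measured.

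The erasers differed in what was seen of them. Fto, the demethylase first known from its link to body mass, lay on Itri16 from 52899764 to 53266950 on the minus strand. Its level was 339.8, 390.3 and 403 CPM in SA, 478, 431 and 407 in IBA and 390.2, 386 and 368 in Ent. In ET it was 333, 327 and 339.6 CPM, and in LT 356 and 409. The ET animals were the lowest, just under the lowest SA animal, and the IBA animals the highest apart from LT replicate 3, which lay among them. The cold minus warm log2 fold change was -0.19 (SE 0.08) with an adjusted p of 0.0669 by the quasi-likelihood test of edgeR (Benjamini-Hochberg adjustment), and in the fit to all libraries that test gave Fto no adjusted p under 0.05. Over the alternatives the adjusted p for cold minus warm ran from 0.0404, with edgeR without SA replicate 1, to 0.516, with total counts as the library size, where the log2 fold change was -0.07. DESeq2 gave Fto an adjusted p under 0.05 for cold minus warm and among the 5 states, the latter 0.0172 in a range of 0.0172 to 0.246 over the alternatives.

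Alkbh5, a demethylase of the nucleus, lay on Itri7 from 61106821 to 61137130 on the minus strand. It had 101, 93.0 and 84.0 CPM in SA, 76.7, 86.3 and 83.7 in IBA, and 103, 109.9 and 95.8 in Ent. It had 154, 117 and 138 CPM in ET and 137 and 143 in LT. Every torpid animal was above every other animal, and the Ent animals lay above those of IBA and overlapped those of SA. From warm to cold the level rose 1.58-fold relative to the library, or 0.66 on the log2 scale (SE 0.09, adjusted p = 5.7e-05 by the quasi-likelihood test of edgeR (Benjamini-Hochberg adjustment)). It was higher in 5 of 5 cold libraries than in any of the 6 warm ones. The call among the 5 states was near the threshold, with an adjusted p of 0.000857 by the same edgeR test with Benjamini-Hochberg adjustment, and it rested on single libraries: leaving out any library other than ET replicate 2 gave 0.00122 to 0.00343, and the whole range of alternatives was 3.47e-09 to 0.0036. The cold minus warm call held in all 14 such fits, with an adjusted p of at most 0.000495 without LT replicate 3. Whether the change of Alkbh5 differed from that of Fto was not tested, but their ratio within a library, which no scaling affects, was 0.161 to 0.297 in the warm and 0.349 to 0.463 in the cold libraries.

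The readers showed the largest changes of the 7 units. Ythdc1, the YTH reader of the nucleus that acts in splicing and export, lay on Itri14 from 17544037 to 17597603 on the minus strand. It had 188, 165 and 189.9 CPM in SA, 197, 184 and 205 in IBA, and 258, 304 and 353 in Ent. It had 421, 455 and 401 CPM in ET and 491 and 428 in LT. The Ent animals stood apart between the warm and the cold animals, without overlap on either side, and ET and LT overlapped. The rise from warm to cold was 2.35-fold, or 1.23 on the log2 scale (SE 0.10, adjusted p = 6.05e-07 by the quasi-likelihood test of edgeR (Benjamini-Hochberg adjustment)), with all 5 cold libraries above all 6 warm ones. Of all units, 94.4% had a lower cold minus warm log2 fold change.

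Ythdf2, the cytoplasmic reader that brings m6A-bearing mRNA to deadenylation and decay, lay on Itri11 from 46966991 to 47012141 on the plus strand. Its level was 149.9, 153 and 129.5 CPM in SA, 131, 124 and 130.3 in IBA, and 166, 161 and 172 in Ent. In ET it was 271, 275 and 229 CPM, and in LT 307 and 241. The Ent animals were close together, above all warm animals and below all cold ones. The rise from warm to cold was 1.96-fold, or 0.97 on the log2 scale (SE 0.09, adjusted p = 2.23e-06 by the quasi-likelihood test of edgeR (Benjamini-Hochberg adjustment)), with all 5 cold libraries above all 6 warm ones, and 89.6% of units had a lower value.

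The TMM factors themselves moved with state, from 0.932 to 0.984 in SA and IBA and from 1.01 to 1.07 in ET and LT. With total counts as the library size, an alternative chosen after seeing the data, the median cold minus warm log2 fold change of all units shifted by 0.12 and its calls went from 1177 higher and 1116 lower to 1430 and 916, while the log2 fold change of Ythdc1 became 1.35, of Ythdf2 1.08 and of Alkbh5 0.78. All 3 were called higher by edgeR at 0.001 under each scaling tried. The season that held LT also held 1 SA animal, and within it SA replicate 1 had 188 CPM of Ythdc1, 149.9 of Ythdf2 and 101 of Alkbh5, each below the lower of the LT values. No test was made within that season.

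**Figure D2:**
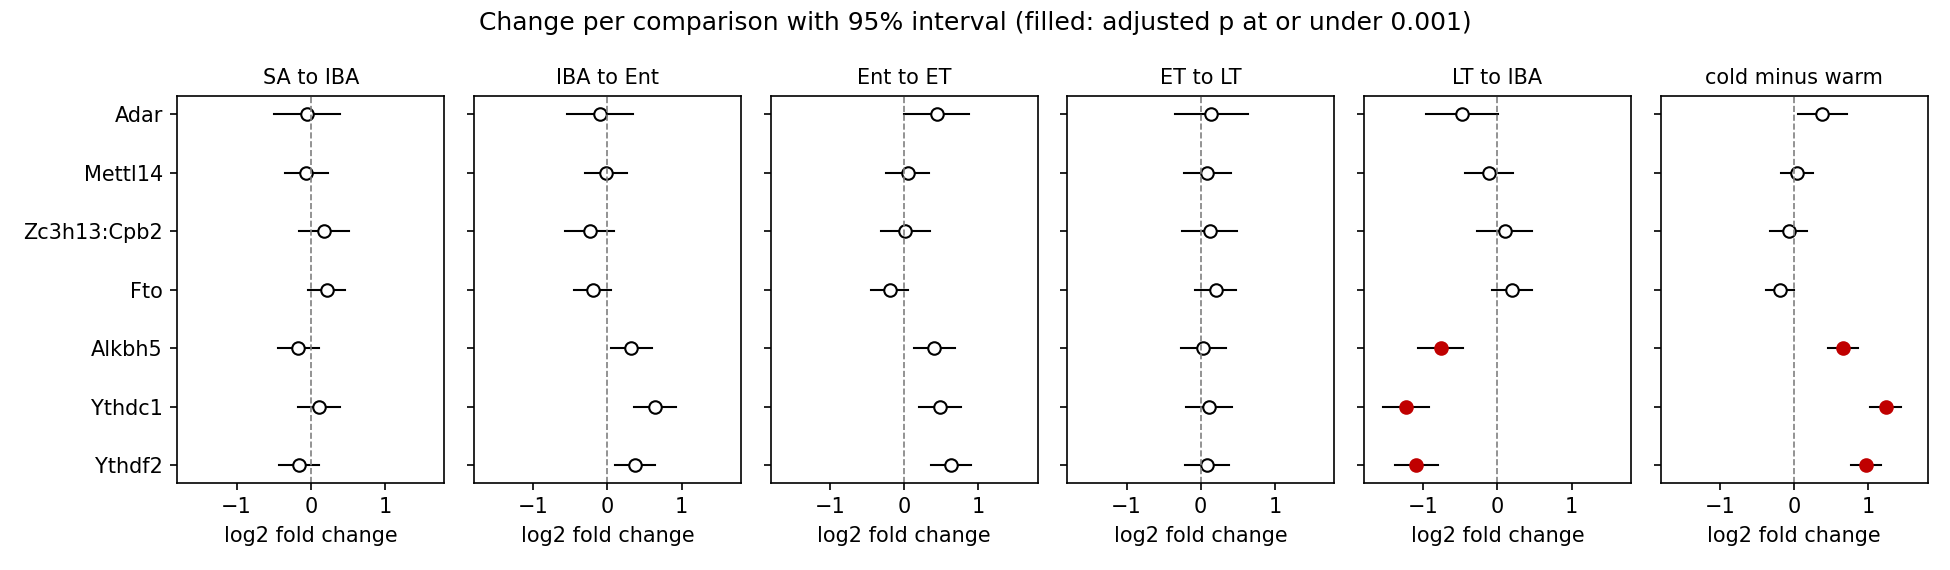
Log2 fold change (x axis) of the 7 units (y axis) in each transition and for cold minus warm, with points for the edgeR estimate, lines for its 95% interval and filled points for an adjusted p of 0.001 or less. Ythdc1, Ythdf2 and Alkbh5 have filled points for LT to IBA and for cold minus warm.

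Taken step by step, the readers and Alkbh5 fell on the way out of torpor, and no step on the way in passed 0.001 for them in edgeR. The way out was a single contrast, whereas the way in was split into IBA to Ent and Ent to ET, each holding part of the rise. The steps are therefore not of like size, and whether entry differed from exit was not tested. From LT to IBA, the rewarming, 3 of 7 units were lower at an adjusted p of 0.001 by the quasi-likelihood test of edgeR (Benjamini-Hochberg adjustment), beside 9.69% of all units. Ythdc1 fell by 1.24 on the log2 scale (SE 0.14, adjusted p = 3.9e-05 by that edgeR test), Ythdf2 by a log2 fold change of -1.09 (0.14, 5.69e-05) and Alkbh5 by -0.77 (0.14, 0.00077). These calls leaned on LT replicate 1, without which the count was 0, with an adjusted p from edgeR of 0.00102 and a log2 fold change of -1.13 for Ythdc1 and of 0.00148 and -0.91 for Ythdf2, from 1 LT animal whose variation was taken from the other groups. The call for Alkbh5 was also lost without LT replicate 3, any IBA animal, Ent replicate 1 or 2, or ET replicate 3, with an adjusted p from edgeR of 0.00109 to 0.0088 over these fits and that without LT replicate 1. It was lost as well with upper-quartile factors and with LT and IBA fitted alone. With collection season as a covariate, Ythdc1 alone kept the edgeR call, with a log2 fold change of -1.36 and an adjusted p of 0.000575, whereas Ythdf2 had -1.09 and 0.00168 and Alkbh5 -0.59 and 0.0299. Over all alternatives the highest adjusted p was 0.00102 for Ythdc1, 0.00168 for Ythdf2 and 0.0299 for Alkbh5, and the lowest was 1.12e-14, 5.7e-13 and 1.2e-06.

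Fewer units passed in the other steps. From IBA to Ent, 0 of 7 units were called by the quasi-likelihood test of edgeR (Benjamini-Hochberg adjustment) at 0.001, beside 0.0316% of all units. There 3 units had an unadjusted p under 0.05 in edgeR, DESeq2 called 1 (Ythdc1) and limma-voom 0. At a threshold of 0.05, Ythdc1 was the 1 unit called by edgeR, with a log2 fold change of 0.65 (SE 0.13) and an adjusted p of 0.0082 from edgeR (8.24e-05 to 0.0359 over the alternatives), where 8.76% of all units were called higher. Ythdf2 had a log2 fold change of 0.37 with an adjusted p of 0.0564 from edgeR (0.0247 to 0.146 over the alternatives, under 0.05 with DESeq2, with upper-quartile factors or total counts, with single-gene units or the compared groups alone, and without LT replicate 1 or 3), and Alkbh5 0.32 with 0.101 (0.0667 to 0.398).

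From Ent to ET, 0 of 7 units passed 0.001 in the quasi-likelihood test of edgeR (Benjamini-Hochberg adjustment), where 2.21% of all units did. In edgeR 3 units had an unadjusted p under 0.05, DESeq2 called 1 (Ythdf2) and limma-voom 0. At 0.05 the 3 units Ythdf2, Ythdc1 and Alkbh5 were called higher, where 15.3% of all units were. Their log2 fold changes were 0.63, 0.48 and 0.41 (SEs 0.12, 0.13 and 0.13), with adjusted p of 0.00287, 0.0161 and 0.0292 by edgeR. Over the alternatives Ythdf2 ran from 9.17e-06 to 0.0166, Ythdc1 from 0.00195 to 0.0711 and Alkbh5 from 0.00656 to 0.108. Ythdc1 lost its call at 0.05 without Ent replicate 1 (0.0711), and Alkbh5 lost it without Ent replicate 1, Ent replicate 3, ET replicate 1 or ET replicate 3, reaching an adjusted p of 0.108 in edgeR without ET replicate 1. The split of all calls in this step moved with scaling, from 64 higher and 76 lower with TMM to 45 and 82 with upper-quartile factors and 96 and 69 with total counts.

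The Ent animals lay between the warm and cold means for each of the 3 genes. On the log2 CPM scale, the Ent mean of Ythdc1 lay 55.9% of the way from the warm to the cold mean (37.4% to 73.9% over the 3 animals). For Ythdf2 it lay 30.3% of the way (25.3% to 35.3%) and for Alkbh5 35.9% (20.7% to 50.7%). The Ythdc1 and Ythdf2 animals did not overlap in this measure, whereas those of Alkbh5 overlapped both, and no test of the difference was made.

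From SA to IBA, between the warm states, 0 of 7 units were called at 0.001 by the quasi-likelihood test of edgeR (Benjamini-Hochberg adjustment), beside 0.0158% of all units. There 0 had an unadjusted p under 0.05 in edgeR, and DESeq2 and limma-voom called 0. The log2 fold changes ran from -0.17 for Alkbh5 to 0.21 for Fto. From ET to LT, within torpor, the same edgeR test called 0 of 7 units and 0.00% of all units, 0 of the 7 had an unadjusted p under 0.05, and DESeq2 and limma-voom called 0 of the 7. Here the log2 fold changes ran from 0.03 for Alkbh5 to 0.20 for Fto, and with 2 LT animals the 95% interval for Ythdc1 reached from -0.20 to 0.42.

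Across the 14 libraries the levels of the called genes ran together. Pearson's r of log2 CPM was 0.92 between Ythdc1 and Ythdf2, 0.91 between Ythdf2 and Alkbh5 and 0.85 between Ythdc1 and Alkbh5, as a description of libraries that fall into states. Fto ran the other way, with r of -0.68 to Ythdf2, -0.67 to Alkbh5 and -0.58 to Ythdc1. Mettl14 followed none of these closely, with r between -0.03 and 0.20 to them. The ratio of the reader Ythdc1 to the eraser Fto in CPM went from 0.447 ± 0.0488 in IBA (n = 3) to 1.21 ± 0.237 in LT (n = 2), and that of Alkbh5 to Mettl14 from 1.35 ± 0.105 to 2.11 ± 0.0566, without overlap in either. The ratio of Ythdc1 to Ythdf2 differed less between these states, from 1.52 ± 0.0478 in IBA to 1.69 ± 0.123 in LT. Across all states its mean ran wider, from 1.27 ± 0.194 in SA to 1.83 ± 0.254 in Ent (n = 3 each).

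Among all single-gene units, those most like each gene over the 14 libraries were these, by Pearson's r of log2 CPM. Ythdc1 was nearest to Usp47 (0.99), to its family member Ythdf3 (0.99) and to Armc8 (0.99). Ythdf2 was nearest to Rbbp4 (0.99), Zbtb43 (0.99) and Ptp4a2 (0.99), and Alkbh5 to Iscu (0.99), Ndufa10 (0.99) and Fgfrl1 (0.98). The patterns were alike in shape and not in size, since Fgfrl1 went from 55.2 CPM in the warm to 484 CPM in the cold and Alkbh5 from 87.4 to 138 CPM. Adar was nearest to Eif4e2 (0.94), Max (0.86) and Pgd (0.86). For Fto, CYP2C8 (0.88) and Camkmt (0.87) were among the nearest, and for Mettl14 the highest r was 0.66, with Sel1l, followed by Lipc (0.64) and Secisbp2 (0.64).

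The surrounding pathway was read from 9 lists holding 180 genes, of which 73 had single-gene units, 31 lay in merged units and 76 had no unit of their name. Of the 73, 23 were higher and 12 lower in the cold at 0.001 by the quasi-likelihood test of edgeR (Benjamini-Hochberg adjustment), beside 18.6% and 17.6% of all units, with a median log2 fold change of 0.15 where that of all units was -0.04. Of other readers of m6A, 3 of 3 with single-gene units were higher in the cold by that test, beside 18.6% of all units, and of 3 in merged units 1 was called higher (that of Rbmx) and 2 were not (those of Ythdf1 and Prrc2a). Ythdf3, a cytoplasmic YTH protein, went from 166 to 318 CPM (log2 fold change 0.94, adjusted p = 1.95e-06 from edgeR), and Hnrnpa2b1, a nuclear RNA-binding protein, from 398 to 888 CPM (1.13, 9.04e-07). The remaining reader, Hnrnpc, had a log2 fold change of 0.45 with an adjusted p of 0.000909 from edgeR, but was not called among the 5 states (0.0117) or from LT to IBA (0.00834). Of the other subunits of the writer complex, the ubiquitin ligase Cbll1 was higher (0.52) and the scaffold Virma was not called (-0.13), so 1 of 2 was called, and the merged unit of Rbm15 was not called. Among other m6A methyltransferases the 1 single-gene unit was higher, Pcif1, which methylates the adenosine beside the cap (0.82), although its cold and warm animals overlapped, and the merged unit of Mettl16 was higher as well. Among the 5 states neither Cbll1 nor Pcif1 was called by edgeR, with an adjusted p of 0.00111 for Cbll1 and 0.00401 for Pcif1. Hnrnpc, Cbll1, Virma, Pcif1 and the genes in merged units are named here because their lists are short, after their values were seen.

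Of the proteins that act with the readers, 3 of 11 were higher and 1 lower by the same edgeR test, beside 18.6% and 17.6% of all units. Cnot7, a deadenylase of the CCR4-NOT complex that Ythdf2 recruits, went from 58.7 to 153 CPM (log2 fold change 1.37), Srsf3, a splicing factor bound by Ythdc1, from 153 to 302 CPM (0.99), and Cpsf6, of the 3′ end processing machinery, from 150.1 to 260.3 CPM (0.77). Rida, which links Ythdf2 to endonuclease cleavage and is also an enzyme of amino acid metabolism in the liver, went from 55.5 to 12.5 CPM (-2.09, SE 0.22), where the warm mean joins 78.9 ± 28.2 CPM in SA with 32.2 ± 4.78 in IBA (SD, n = 3), and from LT to IBA it was not called (adjusted p = 0.00101, edgeR). The supply of the methyl donor S-adenosylmethionine gave 0 calls in 5 genes by edgeR with Benjamini-Hochberg adjustment, with 3 at an unadjusted p under 0.05, 1 higher and 1 lower by DESeq2 and 0 by limma-voom.

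On the side of editing, 8 of 12 single-gene partners and regulators of ADAR were higher in the cold and 2 lower by the edgeR test, beside 18.6% and 17.6% of all units, with a median log2 fold change of 0.71. Tardbp, an RNA-binding protein of splicing, went from 72.1 to 222 CPM (1.58, SE 0.10), the paraspeckle protein Sfpq from 147 to 420.3 CPM (1.51), the helicase Dhx9 from 233 to 459 CPM (SE of the log2 fold change 0.09), and the mRNA-stabilising protein Elavl1 from 71.2 to 117 CPM (0.73). Stau1, a protein that binds duplex RNA, went from 327 to 146 CPM (-1.15). Other deaminases and their cofactors gave 2 lower of 3, and the tRNA adenosine deaminase Adat1 went from 57.5 to 14.5 CPM (-1.96, SE 0.13). Sensors of duplex RNA gave 0 calls in 3 genes by edgeR with Benjamini-Hochberg adjustment, with 2 at an unadjusted p under 0.05, 1 lower by DESeq2 and 0 by limma-voom.

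The widest list, other enzymes of RNA modification, was divided, with 7 of 33 higher, 7 lower and a median log2 fold change of 0.05. Lower in the cold were Emg1, a methyltransferase of ribosomal RNA (31.1 to 8.65 CPM, log2 fold change -1.83), Nsun3, which methylates a mitochondrial tRNA (142 to 56.3 CPM, -1.36), the pseudouridine synthase Pus10 (121 to 52.0 CPM, -1.22) and Elp3, the catalytic subunit of Elongator (97.2 to 55.6 CPM, -0.79). The warm mean of Pus10 joins 147.7 ± 66.9 CPM in SA with 95.2 ± 3.88 in IBA (SD, n = 3). From LT to IBA Pus10 was not called (adjusted p = 0.00807, edgeR). Higher were Thumpd1, a cofactor of tRNA acetylation (log2 fold change 1.29, SE 0.14), the demethylase Alkbh1 (33.8 to 64.4 CPM, 0.92) and the cap methyltransferase Cmtr1 (54.8 to 81.4 CPM, 0.58). The lists share libraries and state differences with each other, and beside the background of 18.6% higher and 17.6% lower no list was set apart by a test.

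**Figure D3:**
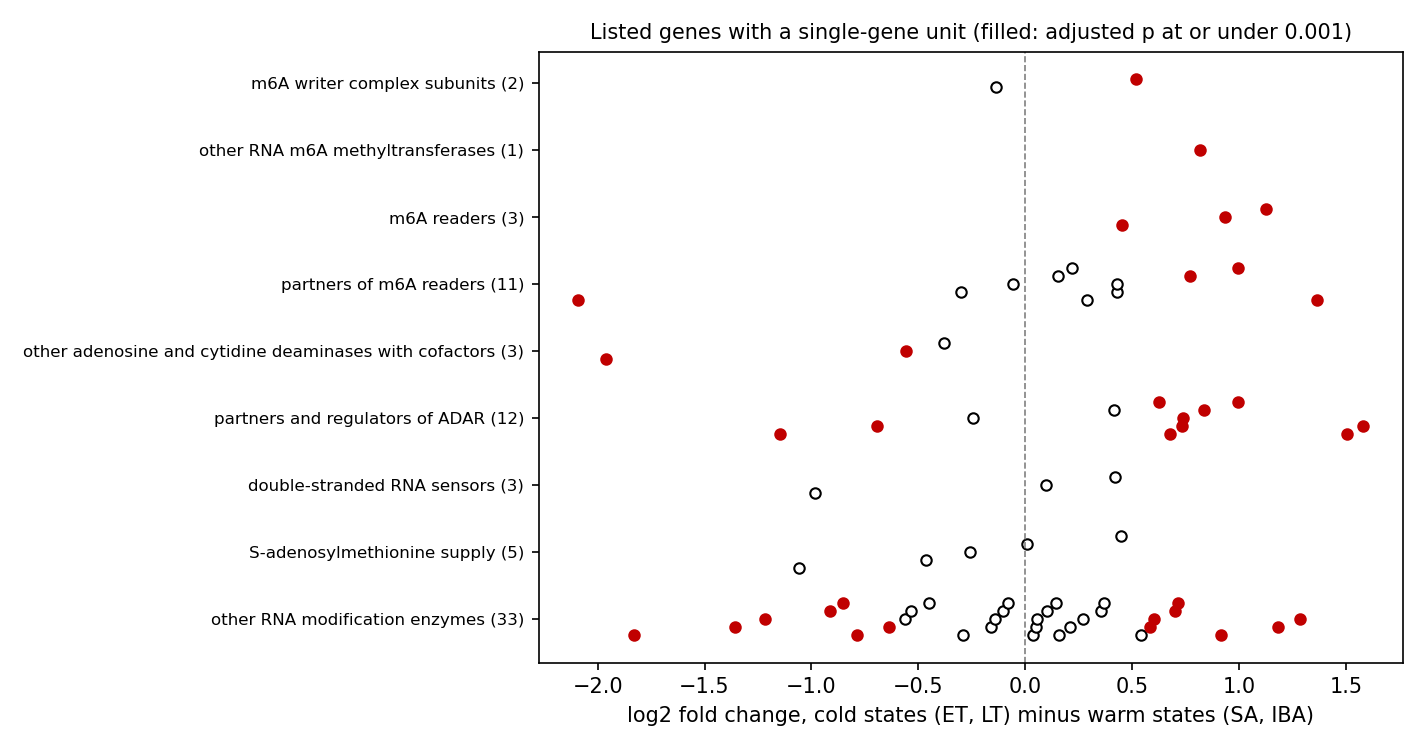
Cold minus warm log2 fold change (x axis) of the 73 listed genes with a single-gene unit, by list (y axis, number of genes in brackets), with filled points for an adjusted p of 0.001 or less in edgeR. All 3 m6A readers lie to the right of 0, and the other RNA modification enzymes spread to both sides, from -1.83 to 1.29.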

How the data were processed

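Per the labels and the study's methods, the authors trimmed the reads with cutadapt, aligned them to HiC_Itri_2 with BWA and counted uniquely aligned reads with featureCounts on gene bodies redrawn from the GRO-seq signal, with overlapping genes joined. The deposited values are raw counts per unit, with no normalization by the authors. The counts had a column for 14 of 15 samples and none for LT replicate 2. The paper had removed that library as of relatively poor quality and an outlier. Counts were scaled by TMM and fitted in edgeR 4.0.16 (R 4.3.3) by a quasi-likelihood model of state without a filter. The Benjamini-Hochberg adjustment took in all 6324 units, and calls were made at 0.001. A prior count of 2 entered log2 CPM. Alternatives were DESeq2 1.42.0, limma 3.58.1 (voom), other library scalings, a filter at 10 counts, single-gene units alone, the compared groups alone, a threshold of 0.05, covariates for season or replicate number, and fits lacking 1 library in turn. Simulated counts served to test the procedure. Versions of cutadapt, BWA and featureCounts were not given in the sources used here. The genes and lists were chosen with earlier results of these data known. Named list genes were up to 4 per list with the largest cold minus warm change among those called across states, and any called in a transition. A unit among those most like Fto is not reported here.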

Additional observations from a re-analysis of the deposited data

How the results depend on the processing

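The cold minus warm counts (3 higher, 0 lower) stayed at 3 and 0 under the alternatives run at 0.001. From IBA to Ent the count of higher units went from 0 to 1 with DESeq2 and to 1 at an adjusted p of 0.05, and from Ent to ET from 0 to 1 with DESeq2 and to 3 at 0.05. The cause of the differences between tools was not tested. From LT to IBA the count of lower units was 1 with the season covariate and 0 to 3 with each library left out in turn. Among the 5 states that count was 2 to 3 over the libraries left out. With single-gene units only, which drops Zc3h13:Cpb2, the median cold minus warm log2 fold change was 0.55 in place of 0.38, and it was 0.28 to 0.49 with each library left out.

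With replicate number as a replicate block, the count of units called among the 5 states was 2 in place of 3 and that from LT to IBA 2 in place of 3, both by Alkbh5, and 3 remained higher in the cold. Deviations of same-numbered libraries correlated between -0.26 and 0.23 over 26 pairs, 6 of them over 0.1. Those of differently numbered libraries correlated between -0.34 and 0.38 over 52 pairs, 13 of them over 0.1, so the numbers were not treated as pairs. Season could not be fitted beside state for ET, for the 5 states together or for cold minus warm. LT had 2 animals, and each of the 7 units of the genes examined had at least 122 counts in every library.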
